A study of Gossypium hirsutum with 12 samples.

Results

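Transcript levels of 5 genes named as peroxidases were followed in leaves of upland cotton (Gossypium hirsutum) grown at 2 temperatures. They are read by 5 of the 24132 probe sets of the Affymetrix Cotton array: Ghi.8107.1.S1_at for pod1 (LOC107945392), Ghi.8108.1.S1_at for pod5 (LOC107922335), Ghi.8110.1.S1_at for pod7 (LOC107936187), Ghi.8105.1.A1_s_at for pod10 (LOC107914313) and Ghi.1039.1.S1_s_at for a gene named peroxidase (LOC107905931). The probe sets were chosen by ID and gene name, and their place in class III of the plant peroxidases rests on these names, with no protein sequence used here. The 12 arrays form 4 groups of 3: the cultivars Sicala 45 and Sicot 53, each with days of 32 °C or of 42 °C and a night temperature of 25 °C. All plants grew in field soil, spent 4 d in a growth cabinet with days of 32 °C before treatment and were sampled at the first-square stage, when the third youngest fully expanded leaf was taken. The heated plants took the place of the control plants in the same cabinet at a later time, so temperature and cabinet run cannot be told apart in any comparison below. Whether the 3 leaf samples of a group were from separate plants is not stated, and p-values thus refer only to the spread among these samples, which may be technical.

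Class III peroxidases are heme enzymes of plants that are sent to the cell wall or the vacuole. With hydrogen peroxide they oxidise phenolic compounds, which joins lignin units and cross-links wall proteins, and under other conditions they can themselves release reactive oxygen species. The family is large, and in leaves its members are known for roles in wall stiffening, in wounding and in defence. What each of these cotton genes acts on is not known from the sources used here.

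Values are MAS5 signals on a linear scale, which were scaled by array to a common trimmed mean. A change is a difference of log2(signal + 16) between group means. The 5 changes were tested with limma in a fit over all probe sets that passed a filter on dim signals, and a change was called at a Benjamini-Hochberg adjusted p under 0.05 over all 16820 of them. All 5 probe sets passed the filter, whose limit was a mean signal of 30.3 over the arrays. Means over all 12 arrays were 14356 for the gene named peroxidase, 1344 for pod10, 362 for pod1, 153 for pod5 and 43.9 for pod7. Signals of different probe sets cannot be compared as transcript amounts, since probes differ in brightness. The means put the gene named peroxidase at the 99.1st percentile of all probe sets and pod7 at the 37.5th, not far above the limit.

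Some array-wide measures moved with temperature. Poly-A spikes, control transcripts of bacterial genes, had signals 1.43 times as high at 42 °C (exact two-sided permutation test within cultivars, p = 0.01). For the ubiquitin gene ubq11, the 3' signal over the 5' signal, a measure of RNA quality, was 2.25 times as high (exact permutation p = 0.02), with 4.73 to 10.7 at 32 °C and 6.39 to 41.5 at 42 °C. For actin that measure was 1.01 times as high (exact permutation p = 0.925), with 7.98 to 13.5 at 32 °C and 6.02 to 18.6 at 42 °C. The highest value of both measures came from the same array, Sicot 53 at 42 °C replicate 2. The 3' signal thus exceeded the 5' signal several-fold for both genes on every array. The leaf marker RCA1, Rubisco activase, had signals of 20925 to 45772. Of 4 probe sets of seed storage genes LegA, vicB_At and 1 for LEGB had mean signals of 9.30, 9.47 and 11.5. The second LEGB probe set had signals of 54.5 to 231, with a mean of 131 that was above the median of every array. Markers listed for other tissues were not all dim. Probe sets of FSLTP2, listed for fibre, had means of 17143 and 4259, and the other fibre genes had means of 378 to 834. Chia7, listed for wounded or root tissue, had a mean of 13185, and the mesophyll gene GOX 2044. The markers thus do not settle whether the samples were leaf alone. Of 11 tested probe sets in 5 lists of markers for leaf mesophyll, fibre, xylem, seed and wounded or root tissue, 0 passed limma's threshold in any comparison. For averaged heat 8.82% of all tested probe sets passed, and fewer in the other comparisons. The marker of lowest p for averaged heat was the fibre gene Fb2, with a log2 change of -0.69 ± 0.21 SE (limma adjusted p = 0.0605).

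The first comparison asks what heat did to peroxidase transcripts over both cultivars together, as the mean of the 2 changes from 32 °C to 42 °C. Only pod1 was called: it was 2.07-fold lower at 42 °C. pod5 had a log2 change of nearly the same size in the other direction, 2.07-fold higher on average, and did not pass the threshold. The other 3 lay within 1.11-fold of no change. Over all tested probe sets 8.82% were called and 4.61% were called lower, and 25.2% had an unadjusted p under 0.05, as 2 of the 5 did. With 5 members, nothing particular to peroxidases can be read from these counts. The median log2 change of the 5 was +0.04, beside -0.05 over all tested probe sets, and the median size without sign was 0.15 against 0.28.

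In Sicala 45 at 32 °C, pod1 gave signals of 542, 440 and 280 in replicates 1 to 3, and at 42 °C of 253, 216 and 207. In Sicot 53 the signals were 674, 770 and 301 at 32 °C and 231, 142 and 287 at 42 °C. In each cultivar every 42 °C array lay below every 32 °C array, as it did in both cultivars for 4.26% of tested probe sets. The gaps were narrow, 280 against 253 in Sicala 45 and 301 against 287 in Sicot 53, because replicate 3 was the lowest of the 32 °C arrays in each cultivar. Group means were 421 ± 132 (SD, n = 3) and 226 ± 24.2 in Sicala 45, and 582 ± 248 and 220 ± 73.0 in Sicot 53. The spread at 32 °C was therefore the wider in each cultivar.

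Averaged over the cultivars, pod1 fell by 1.05 ± 0.26 (SE) on the log2 scale (95% interval -1.61 to -0.49, limma adjusted p = 0.0281). In whole leaves, fewer cells of a type that carries the transcript and less transcript per cell cannot be told apart. The lowest pod1 signal, 142, came from the array with the highest ubq11 ratio, 41.5, which was Sicot 53 at 42 °C replicate 2. The other array with a ratio above 20, Sicala 45 at 42 °C replicate 2, had a ratio of 24.6 and a pod1 signal between those of its group. Without these 2 arrays the log2 change of pod1 was -0.90 (adjusted p = 0.0986), and with the ubq11 ratio as a covariate it was -0.76 (adjusted p = 0.207). The call of pod1 also ended when any 1 of 7 of the 12 arrays was left out. These were replicates 1 and 2 at 32 °C in each cultivar, replicates 2 and 3 of Sicala 45 at 42 °C and replicate 2 of Sicot 53 at 42 °C, with log2 changes between -1.04 and -0.92 and adjusted p of at most 0.0772. The sign was negative under all 25 alternative settings run.

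**Figure D1:**
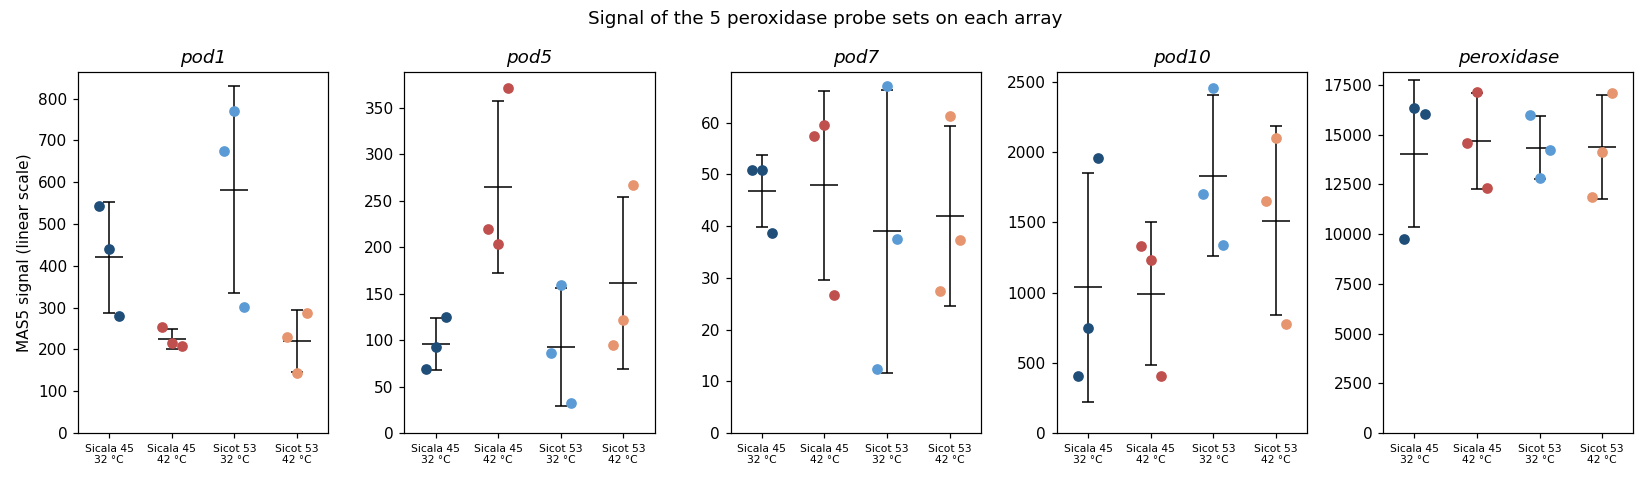
MAS5 signal (linear scale, y axis from 0) of each of the 5 peroxidase probe sets on the 12 arrays, by cultivar and day temperature; points are arrays and black bars show the mean ± SD of 3 arrays. For pod1 the 42 °C points (142 to 287) sit below the 32 °C points of the same cultivar, while the points of pod7 and the gene named peroxidase overlap between all groups, and those of pod10 overlap between the temperatures of each cultivar and between the cultivars at each temperature.

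pod5 was dimmer than pod1, with signals on either side of the array medians of 86.1 to 115. In Sicala 45 its signals were 69.0, 92.2 and 125 at 32 °C and 220, 203 and 372 at 42 °C. Every 42 °C array was thus above every 32 °C array, as for 9.61% of tested probe sets in that cultivar. In Sicot 53 the signals of pod5 were 85.8, 159 and 32.1 at 32 °C and 95, 122 and 267 at 42 °C, and the temperatures overlapped. Group means were 95.3 ± 28.0 (SD, n = 3) and 265 ± 92.8 in the first cultivar, and 92.3 ± 63.7 and 161 ± 92.6 in the second.

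The averaged log2 change of pod5 was +1.05 ± 0.33 SE (95% interval 0.32 to 1.77, limma adjusted p = 0.0718). It missed the threshold as reported and passed it under quantile normalization (+1.13, adjusted p = 0.0498), with array weights (+1.15, adjusted p = 0.0169) and without Sicot 53 at 32 °C replicate 2 (+1.27, adjusted p = 0.0318). Of all tested probe sets 8.88%, 17.6% and 8.32% were called in those settings. When each array was scaled to its poly-A spikes, which took the median change of all tested probe sets from -0.05 to -0.51, the change of pod5 was +0.60 and that of pod1 -1.53. The 2 genes thus had opposite signs under that scaling, as they did with quantile normalization and median centring.

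**Figure D2:**
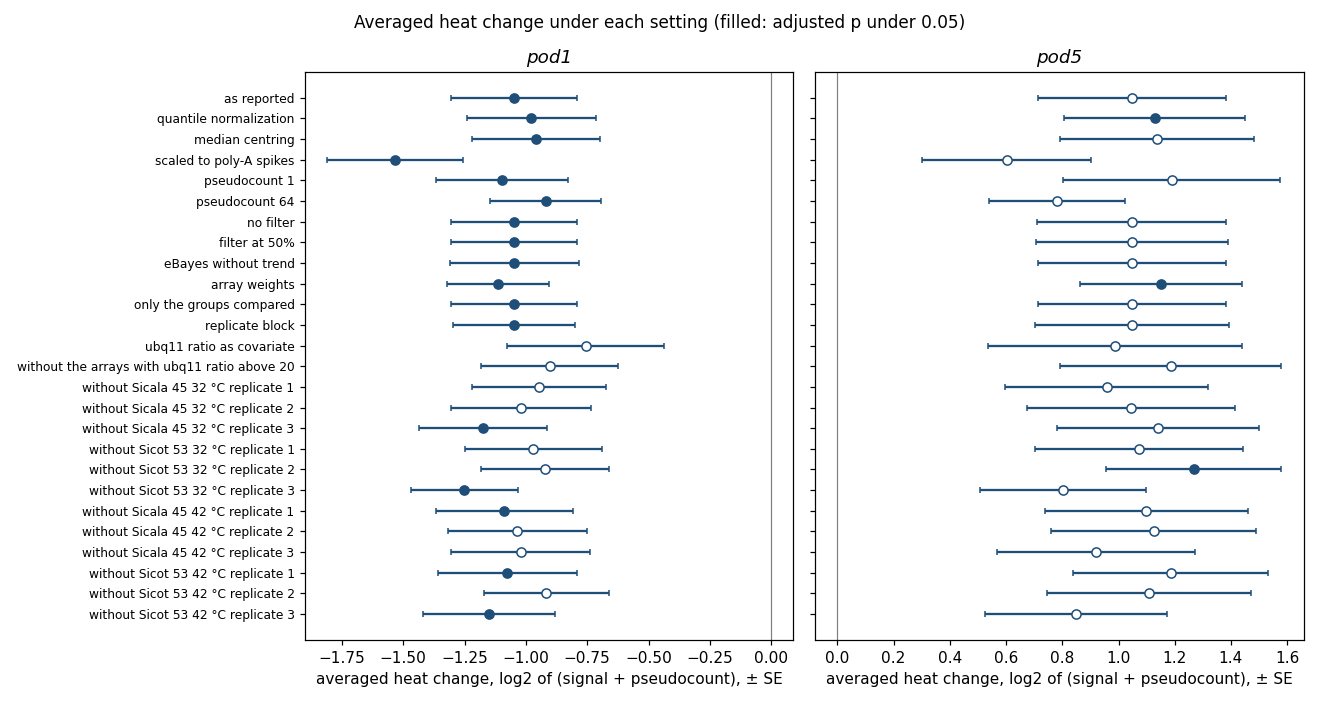
Averaged heat change of pod1 (left) and pod5 (right) on the scale of log2(signal + pseudocount), with its SE, as reported and under 25 alternative settings; filled points have an adjusted p under 0.05. The pod1 points lie between -1.53 and -0.76 and 16 of the 25 are filled, and the pod5 points lie between 0.60 and 1.27 and 3 are filled.

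The other 3 members gave no detectable difference between the temperatures. The gene named peroxidase had signals of 9763, 16314 and 16049 in Sicala 45 at 32 °C and of 14579, 17131 and 12310 at 42 °C. In Sicot 53 it had 15982, 12839 and 14214 at 32 °C and 11883, 14138 and 17073 at 42 °C. All 4 groups overlapped, at means of 14042 ± 3708 (SD, n = 3) to 14674 ± 2412. Its log2 change was +0.04 ± 0.17 SE (95% interval -0.34 to 0.42, limma adjusted p = 0.917), an interval that leaves out changes beyond 1.34-fold upward. The sign was negative with quantile normalization (-0.011) and with spike scaling (-0.48, limma adjusted p = 0.0577). Under spike scaling the median log2 change of all tested probe sets was -0.51, and 34.3% of them were called. The signals of the gene named peroxidase were 25.1% to 44.9% of the highest value on their arrays, below the brightest probe sets.

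pod10 varied most between arrays of a group. At 32 °C its signals were 408, 748 and 1960 in Sicala 45 and 1700, 2460 and 1339 in Sicot 53. At 42 °C they were 1334, 1234 and 407 in Sicala 45 and 1652, 2104 and 779 in Sicot 53. Sicala 45 at 32 °C thus ran from 408 to 1960, while the 2 highest arrays of the gene, 2460 and 2104, were of Sicot 53. Its log2 change was -0.15 ± 0.41 SE (95% interval -1.04 to 0.75, limma adjusted p = 0.864), an interval from 0.487 to 1.68 times the 32 °C level.

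pod7 was near the dim end, with signals of 12.5 to 67.0 that were all below the median of their arrays. Sicala 45 gave 50.9, 50.8 and 38.7 at 32 °C and 57.4, 59.5 and 26.7 at 42 °C. Sicot 53 gave 12.5, 67.0 and 37.5 at 32 °C and 27.4, 61.3 and 37.3 at 42 °C. The log2 change was +0.08 ± 0.29 SE (95% interval -0.56 to 0.71, limma adjusted p = 0.904), and it turned negative (-0.29) when arrays were scaled to the spikes. The table has no detection calls, so whether pod7 was above background is not known, and at such signals the added 16 makes changes look smaller.

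Taken cultivar by cultivar, no member passed the threshold in limma. In Sicala 45, where 1.83% of tested probe sets were called, 0 of 5 passed and 2 had an unadjusted p under 0.05, as had 15.4% of tested probe sets. These were pod5, with a log2 change of +1.32 ± 0.47 SE (limma adjusted p = 0.205), and pod1, with -0.81 ± 0.36 (adjusted p = 0.315). The groups of 3 were apart for both genes, as they were for 20.6% of tested probe sets, 9.61% with the 42 °C arrays higher and 11% with them lower. In Sicot 53, where 1.36% were called, 0 of 5 passed and 1 had an unadjusted p under 0.05, as had 15.5% of tested probe sets. This was pod1, with -1.29 ± 0.36 (limma adjusted p = 0.123). It passed under scaling to the spikes (-1.78, adjusted p = 0.0461), where 1.52% of tested probe sets were called. With array weights it passed too (-1.31, adjusted p = 0.00836), where 11.9% were called. In the fit as reported, pod5 had +0.78 ± 0.47 in Sicot 53 (adjusted p = 0.454). The groups were apart for pod1 only, against 20.9% of tested probe sets in either direction and 11.8% with the 42 °C arrays lower.

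The next comparison asks whether heat changed a peroxidase by a different amount in the 2 cultivars. No member passed the test of that difference (limma, 0 of 5, 0 with an unadjusted p under 0.05), and neither did any tested probe set (0%, with 330 at an unadjusted p under 0.05, or 1.96%). The heat change of pod1 was lower by 0.48 log2 units in Sicot 53 than in Sicala 45 (95% interval -1.60 to 0.64), and that of pod5 was lower by 0.54 (-1.99 to 0.91). Differences were +0.18 (-1.08 to 1.45) for pod7, -0.40 (-2.18 to 1.39) for pod10 and -0.10 (-0.86 to 0.66) for the gene named peroxidase. Each interval reaches at least 1.56-fold in either direction, so the arrays do not show that heat acted alike in the cultivars.

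Sicot 53 was then set against Sicala 45 at each temperature. At 32 °C, where 0.107% of tested probe sets were called, 0 of 5 peroxidases passed in limma and 0 had an unadjusted p under 0.05, as had 2.10% of tested probe sets. pod10 had the largest difference, at 1833 ± 572 (SD, n = 3) in Sicot 53 and 1038 ± 816 in Sicala 45, a log2 difference of +1.06 ± 0.58 SE (95% interval -0.20 to 2.32, limma adjusted p = 0.9998). The arrays overlapped, since the highest Sicala 45 value, 1960, exceeded 2 of the 3 Sicot 53 values. At 42 °C, where 0.107% were called too, 0 of 5 passed and 0 had an unadjusted p under 0.05, as had 2.97%. pod10 was again higher on average in Sicot 53, with +0.66 ± 0.58, at means of 1512 ± 674 and 992 ± 509. pod5 had -0.74 ± 0.47 at 42 °C and -0.20 ± 0.47 at 32 °C, pod1 had -0.08 ± 0.36 and +0.40 ± 0.36, and the rest lay between -0.32 and +0.06 at either temperature. At both temperatures no member had its cultivars apart, where 7.20% of tested probe sets did at 32 °C and 6.21% at 42 °C.

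**Figure D3:**
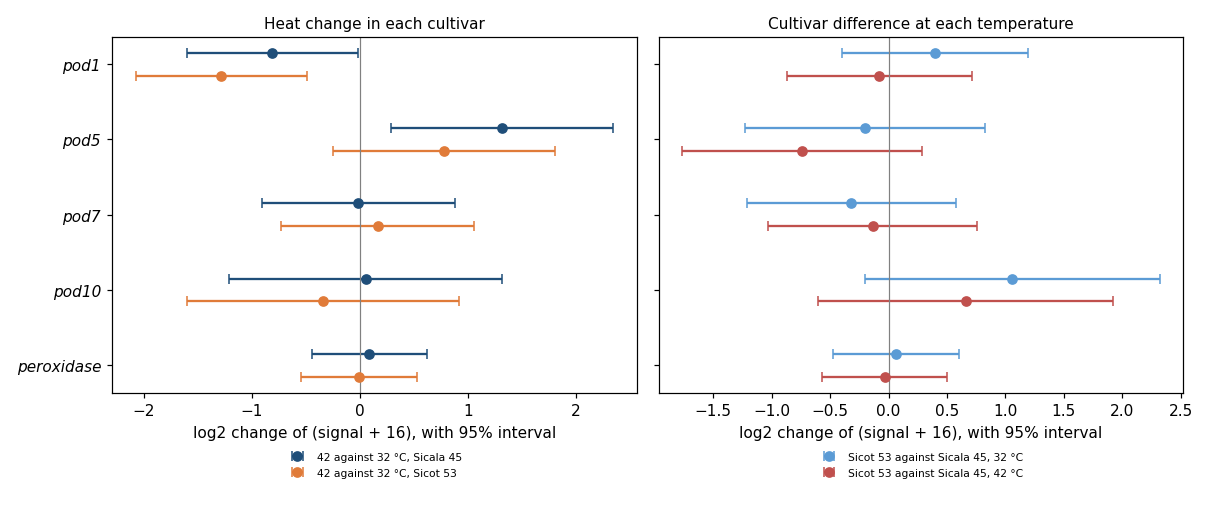
log2 change of (signal + 16) for each peroxidase with its 95% interval, for 42 against 32 °C in each cultivar (left) and for Sicot 53 against Sicala 45 at each temperature (right). Intervals of pod1 stay below 0 in both cultivars and that of pod5 stays above 0 in Sicala 45, before any adjustment for the number of probe sets tested, while all cultivar differences have intervals that include 0.

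Ordered by mean signal, the groups of pod1 ran from Sicot 53 at 32 °C through Sicala 45 at 32 °C to Sicala 45 at 42 °C and Sicot 53 at 42 °C. Only the step from Sicala 45 at 32 °C to Sicala 45 at 42 °C separated neighbours whose arrays did not overlap, at 1.86 times. For pod5 the order was Sicala 45 at 42 °C, Sicot 53 at 42 °C, Sicala 45 at 32 °C and Sicot 53 at 32 °C, and all neighbours overlapped. For pod10 both Sicot 53 groups came before both Sicala 45 groups, again with all neighbours overlapping. The groups of pod7 and of the gene named peroxidase had neighbours within 1.11 and 1.02 times of each other and overlapped throughout.

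The 5 genes differed in where their variation lay. Of the sum of squares of log2(signal + 16) over the 12 arrays, temperature took 60.1% for pod1 and 43.4% for pod5. It took under 1% for the other 3. Cultivar took 27.2% for pod10, 8.66% for pod5, 6.82% for pod7 and 1.39% for pod1. Arrays of the same group accounted for the rest apart from a small share for temperature by cultivar: 35.4% for pod1, 45.0% for pod5, 70.6% for pod10, 91.3% for pod7 and 98.1% for the gene named peroxidase. Within groups the SD of pod10 was 0.85 log2 units, above that of 94.1% of tested probe sets, and that of the gene named peroxidase was 0.29, above 26.7%, with 0.40 as the median. The gene with the brightest signals was thus also the steadiest of the 5, at 1.75 times between its lowest and highest array, where pod5 spanned 11.6 times.

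**Figure D4:**
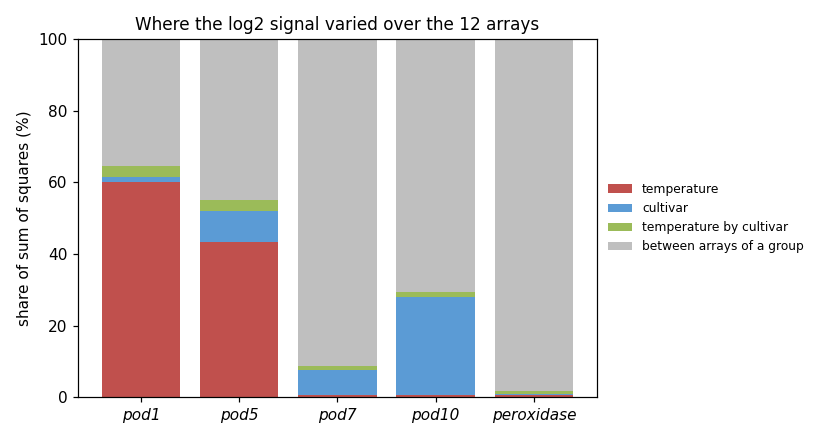
Share of the sum of squares of log2(signal + 16) over the 12 arrays (%, y axis) that lay with temperature, cultivar, temperature by cultivar and arrays of the same group, for each peroxidase. The temperature share is 60.1% for pod1 and 43.4% for pod5, and for the gene named peroxidase 98.1% lies between arrays of a group.

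The array holds 7 more probe sets, of 6 other genes named pod, POX or peroxidase, which are not among the 5. Only 3 passed the filter on dim signals, and 0 of these were called for averaged heat, where 8.82% of all tested probe sets were. POX9 had signals of 283, 327 and 416 in Sicala 45 at 32 °C against 149, 179 and 310 at 42 °C, and of 247, 152 and 344 in Sicot 53 against 175, 112 and 157. The arrays overlapped in each cultivar, and the log2 change was -0.67 ± 0.23 SE (limma adjusted p = 0.0988). POX10 had a log2 change of +0.55 ± 0.23 (adjusted p = 0.166). pod3 was erratic, with 1.13 to 159 over the arrays and a log2 change of +0.67 ± 0.62 (adjusted p = 0.548). The 4 that did not pass the filter, for POX5, pod6 and a second gene named peroxidase, had mean signals of 12.3 to 27.9 and none above 55.8.

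A list of enzymes that make or remove superoxide and hydrogen peroxide, the substrate of peroxidases, also held an enzyme of ascorbate recycling. For averaged heat 0 of its 10 tested probe sets were called in either direction, where 8.82% of all were called. Their median log2 change was -0.15. Those of lowest p were the manganese superoxide dismutase Mn-SOD, with -0.51 ± 0.25 SE (limma adjusted p = 0.228), and the copper/zinc superoxide dismutase CSD2a, with +0.27 ± 0.13 (adjusted p = 0.230). Catalase CAT2 had -0.12 ± 0.21, and the ascorbate peroxidases gAPX and sAPX, of another peroxidase class, had -0.19 ± 0.19 and -0.04 ± 0.23. Of 3 tested glutathione S-transferase probe sets 1 fell (GST, LOC107948407, log2 change -1.16 ± 0.27, limma adjusted p = 0.0199), and another had -0.37 ± 0.37 (adjusted p = 0.593). The list's median was -0.37.

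Genes of the phenolic units that peroxidases couple were few. CCoAMOT2, by its name a caffeoyl-CoA methyltransferase of monolignol synthesis, had -0.64 ± 0.31 SE (limma adjusted p = 0.228). CCR1, a name used for cinnamoyl-CoA reductase, had -0.33 ± 0.17 (limma adjusted p = 0.241). For averaged heat 0 of 2 were thus called, beside 8.82% of all tested probe sets, and the median was -0.48. No probe set carried a name of the laccase or dirigent list. Among 28 tested probe sets of wall proteins and wall polysaccharide enzymes, 1 was called for averaged heat, beside the same 8.82% of all. This was the xyloglucan endotransglucosylase XTH3, which rose (log2 change +1.70 ± 0.47, limma adjusted p = 0.0455). Other tested probe sets named XTH had -0.61 ± 0.45, +0.16 ± 0.26 and +0.07 ± 0.55 and were not called. Next lowest in p among the wall genes was a probe set of FLA, a fasciclin-like protein, with +0.62 ± 0.31 (limma adjusted p = 0.232). Other probe sets of FLA had +0.58 ± 0.43 and +0.15 ± 0.29, and the median of the list of wall genes was -0.05. No gene of these lists was called in either cultivar alone or between the cultivars (limma). Of all tested probe sets 1.83% were called for heat in Sicala 45, 1.36% in Sicot 53 and 0.107% between cultivars at each temperature.

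Likeness of pattern was measured against 255 tested probe sets with a gene name, as the root mean square difference over the 12 arrays between log2(signal + 16) profiles that were each centred on their own mean. Closest to pod1 were Rab7, a small GTPase of vacuolar trafficking, at 0.31 log2 units, and MPK3 (LOC107959059), a mitogen-activated protein kinase by name, at 0.33, where the median over all was 0.80. Both were lower at 42 °C, Rab7 with a log2 change of -0.77 ± 0.18 SE (limma adjusted p = 0.0225) and MPK3 with -1.07 ± 0.31 (adjusted p = 0.0492) at dim mean signals of 56.4 and 16.4. Since Rab7 and MPK3 were picked for closeness to pod1 on the same arrays, that direction was largely set by the choice. Their p-values are thus no separate evidence of a heat change. Closest to pod5 were NHX1, a sodium/proton exchanger by name, at 0.46, and the gibberellin receptor gene GID1-4 at 0.48, with a median of 0.94. Neither was called for averaged heat, NHX1 having +0.84 ± 0.32 (limma adjusted p = 0.123) and GID1-4 +0.70 ± 0.32 (adjusted p = 0.196). The same limit holds for NHX1 and GID1-4, which were picked for closeness to pod5.

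For pod7, pod10 and the gene named peroxidase, the distance to the nearest profiles can be read against each gene's own spread about its mean. pod7 lay 0.39 from psmB1 and 0.41 from NAC10, where its own spread about its mean was 0.43. pod10 lay 0.52 from KCS12 and 0.67 from NAC10, with a spread of 0.82. The gene named peroxidase lay 0.16 from Chia7, a chitinase by name, and 0.17 from HIS3, a histone H3 by name, with a spread of 0.24. These distances are descriptions over arrays that also share hybridisation and scaling.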

How the data were processed

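The authors deposited linear intensity values, 1 for each probe set on each array. The submitters' processing notes name MAS5 without a version. RNA was extracted with a hot borate method and labelled with biotin, per the labels' protocols. Trimming 2% at each end gave means of 501 on every array. From these values log2(signal + 16) was computed, leaving out 103 control probe sets and the dimmest 30% of the rest. The 4 groups of 3 arrays entered 1 limma fit (version 3.58.1, R 4.3.3) of linear models with empirical Bayes moderation that let the variance follow mean intensity, with two-sided tests for 6 comparisons and Benjamini-Hochberg adjustment over 16820 probe sets. The number of arrays limits the precision. The fit was tested on simulated data. Exact permutation tests within cultivars served for control measures. Of 24132 probe sets 697 have 1 gene symbol, all matched by gene ID to assembly Gossypium_hirsutum_v2.1, and 318 have an informative name. Cotton is tetraploid, and probe sets ending in _s_at, here those of pod10 and the gene named peroxidase, can read several related transcripts. Named besides the members were the called genes of each list, the 2 of lowest p and the 2 nearest profiles per member. The gene lists were matched by name, and their patterns were fitted to the spelling of the annotation. Named outside that rule, after their values were seen, were CAT2, both ascorbate peroxidases, pod3, LegA, vicB_At and the dimmer LEGB probe set. So were the brighter FSLTP2 probe set and the other probe sets of FLA and XTH. The members, lists and alternatives were chosen with earlier results of these data known, so the calls of pod1, GST and XTH3 and the values of pod5 are no independent evidence. Alternatives were 13 settings of scaling, pseudocount, filter, fit and RNA quality, and leaving out each array. Figures were drawn with matplotlib 3.10.9.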

Additional observations from a re-analysis of the deposited data

How the results depend on the processing

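The number of the 5 peroxidases called for averaged heat was 1 as reported, 2 under quantile normalization and with array weights, 0 with the ubq11 ratio as a covariate and without the 2 arrays whose ubq11 ratio exceeded 20, and 0 to 1 when single arrays were left out. Without Sicot 53 at 32 °C replicate 2 the count stayed at 1, with pod5 called in place of pod1. For heat in Sicot 53 it was 0, and 1 under scaling to the spikes and with array weights. In these settings 1.52% and 11.9% of all tested probe sets were called, against 1.36% as reported. The counts for heat in Sicala 45, both cultivar comparisons and the difference between heat changes were 0 in every setting run. Over all tested probe sets, 1484 were called for averaged heat as reported, 278 higher and 5496 lower under scaling to the spikes, 2962 with array weights, 780 with the covariate, 784 without the 2 arrays, and 768 to 1679 without single arrays. No clear pairing of arrays by replicate number was seen: 7 of 18 same-numbered pairs had deviations that correlated above 0.1, and 3 of 12 arrays correlated best with their own number. Deviations from means of 3 arrays are tied to each other, so this check cannot exclude a pairing. With the replicate number as a block, 1 peroxidase was called for averaged heat and 0 in the other comparisons, with pod1 at an adjusted p of 0.0322, and 1314 probe sets in all. The rise of the ubq11 ratio ranged from +0.84 to +1.43 on the log2 scale without single arrays (exact permutation p 0.01 to 0.065), that of the spikes from +0.47 to +0.59 and that of the actin ratio from -0.22 to +0.19. Dim signals limit pod7, which the filter at 50% removed.

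Signs turned only for changes that passed the threshold in no setting, and the cause was not tested. For averaged heat, pod7 was -0.29 under spike scaling, -0.082 with the covariate and -0.11 without the 2 arrays, and the gene named peroxidase -0.011 under quantile normalization and -0.48, -0.10 and -0.017 in those 3 settings. In Sicala 45, pod7 was +0.073 under median centring and +0.0020 with a pseudocount of 64. Under spike scaling, with the covariate and without the 2 arrays, pod10 was -0.44, -0.20 and -0.19 there, and the gene named peroxidase -0.41, -0.0011 and -0.029. In Sicot 53, the gene named peroxidase was +0.080 under median centring, and pod7 -0.18, -0.049 and -0.061 in those 3 settings. Between cultivars at 32 °C, the gene named peroxidase was -0.066 under quantile normalization and -0.21 under spike scaling. At 42 °C, pod7 was +0.021 under quantile normalization, the gene named peroxidase +0.0044 under median centring and +0.088 without the 2 arrays, and pod1 +0.16 with array weights, +0.033 with the covariate and +0.16 without the 2 arrays. The difference between heat changes was +0.025 for the gene named peroxidase without the 2 arrays.

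Leaving out single arrays gave ranges that crossed 0 for these changes. For averaged heat they were -0.13 to +0.26 (pod7), -0.40 to +0.15 (pod10) and -0.081 to +0.10 (the gene named peroxidase). In Sicala 45 they were -0.16 to +0.25, -0.46 to +0.65 and -0.15 to +0.22, and in Sicot 53 -0.24 to +0.53, -0.64 to +0.070 and -0.14 to +0.12. For cultivars at 32 °C they were -0.64 to +0.29 (pod5), -0.68 to +0.092 (pod7) and -0.18 to +0.19 (the gene named peroxidase). At 42 °C they were -0.28 to +0.18 (pod1), -0.40 to +0.054 (pod7) and -0.17 to +0.10 (the gene named peroxidase), and for the difference between heat changes -0.23 to +0.55 (pod7), -0.996 to +0.11 (pod10) and -0.23 to +0.15 (the gene named peroxidase).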
